A study of Copadichromis virginalis x Mchenga conophoros with 6 samples.

Results

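Protein phosphatases remove phosphate from serine, threonine or tyrosine residues and so reverse the work of the protein kinases. The genes described here were chosen by gene symbol and cover protein phosphatase families together with phosphatases of phosphoinositides and inositol phosphates. They include the PPP catalytic subunits, the regulatory subunits of PP1, PP2A, PP4 and PP6, and the PPM phosphatases. The others are the receptor-type and non-receptor protein tyrosine phosphatases (PTPs), the PTP4A, dual specificity, CDC14 and myotubularin phosphatases, and the inositol polyphosphate phosphatases. A gene was included when it was listed in at least 1 pit digging and at least 1 isolated library, with ppp3ca, ppp3r1 and ptprn set aside. This gave 87 genes of the 13212 listed in any library, in 13 families.

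The RNA came from whole brains of male F1 hybrids between Copadichromis virginalis, a Lake Malawi cichlid whose males dig pits as spawning bowers, and Mchenga conophoros, whose males build sand castles. The hybrids went through a paradigm for pit digging, a paradigm for castle building or social isolation, with 2 libraries for each. Every animal carries a genome copy from each parent species, so reads at sites that differ between the parents can be assigned to an allele, and within an animal both alleles share the same cells, the same behaviour and the same library. Age, the mother's species, and whether a library came from 1 brain or several are not given in the labels. The labels also do not say that replicates were separate animals, so p-values measure the spread between these samples.

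In mammals, PP1 and PP2A carry out most serine and threonine dephosphorylation, and their few catalytic subunits are directed to substrates by many regulatory subunits. Receptor-type PTPs span the membrane, and several organise synapses or adhesion between neurons. Several dual specificity phosphatases switch off MAP kinases, though not all members of the family do. Myotubularins and the inositol polyphosphate phosphatases act on phosphoinositides and soluble inositol phosphates, which steer endosomes and calcium release. The roles given below are those known from mammals.

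For each library the authors deposited read counts per gene on each allele. Totals ran from 2155680 to 3294397 counts per library, and 52.2% to 53.9% of them lay on the C. virginalis allele. The tables list a gene only if it has at least 6 counts on each allele, so a gene missing from a table is not a count of 0. The lowest listed total of both alleles was 21 counts in each castle building library and 12 in each other library. Over all genes, counts of the castle building pair differed by less than sampling noise, though single genes differed by more. For ppm1e they were 140 on C. virginalis and 182 on M. conophoros in replicate 1, against 216 and 193 in replicate 2. Divided by its degrees of freedom, chi-square over genes was 0.495 for this pair, 27.3 for pit digging and 20.4 for isolation. The 2 castle building libraries were therefore averaged and counted as 1 sample, which leaves 5 samples. As 1 sample, castle building has no replicate spread: in every test it is assumed to vary like the pit digging and isolated samples, from which the spread comes. Between the castle building libraries 18 of 78 phosphatase genes had identical counts on both alleles, against 0 of 79 and 0 of 80 in the other pairs. Levels are given as CPM, the count of both alleles together scaled by library size in the usual way. Of 9 neuronal markers 7, among them snap25, were listed in every library. They summed to 3758 CPM in castle building, within the 3639 to 4700 CPM of the other samples. Of 5 oligodendrocyte markers mbp and mpz were listed, and they summed to 5365 to 6610 CPM in the pit digging and isolated samples and to 882 CPM in castle building. Of 7 markers of radial glia and astroglia, the 4 listed in all libraries summed to 5418 CPM in castle building and to 2656 to 4855 CPM in the other samples. Of 6 markers of microglia and leukocytes, csf1r and cd74 were listed in all libraries and summed to 84.5 CPM in castle building and to 152 to 265 CPM elsewhere. Of 4 vascular markers only kdr was listed, at 17.0 CPM in castle building, within the 9.30 to 25.25 CPM of the other samples. Markers of erythrocytes, pituitary and retina were not listed in all libraries. Over all genes tested, castle building CPM lay outside the 4 other samples for 65.4%. In RNA from whole brain, fewer cells of a type and less RNA per cell cannot be told apart.

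Of the 87 phosphatase genes, 71 were listed in all 6 libraries and were tested across all paradigms together with every other such gene, 6844 in all. Another 6 were listed in all pit digging and isolated libraries and were tested over those 4 libraries. The other 10 are each missing from at least 1 pit digging or isolated table and were not tested. The allelic measure is the C. virginalis share, the percentage of a gene's allele-assigned counts that lay on the C. virginalis allele, and its test is edgeR's quasi-likelihood test of the log2 ratio of C. virginalis to M. conophoros counts, with p-values adjusted by the Benjamini-Hochberg method over all genes and a threshold of 0.05. A gene is called when it passes this edgeR test, unless DESeq2 is named.

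Most phosphatase genes had about equal counts on both parental alleles. The mean C. virginalis share over the 5 samples ran from 42.8% (ptp4a3) to 69.5% (ptprn2), with quartiles of 48.9% and 53.3% and a median of 50.9%, beside 48.9%, 53.4% and 50.9% over all genes tested. Of the 71 genes, 7 passed the test of the allele ratio over all paradigms, against 8.21% of all genes. All 7 were higher on the C. virginalis allele, a direction taken by 7.74% of all genes. They were ptprn2, ptprd, ppp1cb, ppp2r5b, dusp8, mtmr4 and inpp5a. Over all genes, 530 were called higher on C. virginalis and 32 lower. Whether read assignment favoured either parent was not tested. The median log2 allele ratio was 0.04 over the phosphatase genes and 0.05 over all genes. The share was above 50% in all 5 samples for 9 genes, cdc14b, dusp8, inpp5a, ppp1r7, ppp2r5b, ppp2r5c, ptprd, ptprk and ptprn2, against 13.2% of all genes. It was below 50% in all 5 samples for 3 genes, ppm1f, ptp4a3 and ptpn11, against 3.4% of all genes.

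The receptor-type PTP ptprn2 had the lowest adjusted p of the 71. It encodes phogrin, a protein of the membrane of dense-core secretory vesicles in neurons and endocrine cells. Its C. virginalis share was 70.3% and 73.4% in the pit digging samples, 58.6% in castle building and 72.1% and 73.1% in the isolated samples, on totals of 416 to 585 counts. All 5 values lay well above 50%, with castle building apart from the other 4. The mean share was 69.5% ± 6.2 (SD, n = 5), and the log2 allele ratio was 1.08 ± 0.08 (SE, edgeR adjusted p = 0.00025). The call held in each of 13 alternative settings, with adjusted p between 5.63e-06 and 0.00657. The sum of both ptprn2 alleles moved little, from 205 to 277 CPM over the 5 samples.

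Another receptor-type PTP, ptprd, organises synapses by binding partners such as Slitrk and IL1RAPL proteins. Its share was 68.0% and 56.8% in pit digging, 54.8% in castle building and 57.4% and 57.2% in isolation. The totals of 2403 to 4338 counts make these some of the more precise shares, and in pit digging replicate 1 the exact 95% interval was 66.1% to 69.9%, against 55.3% to 58.3% in replicate 2. These intervals cover counting error only. The pit digging replicates thus differed by more than counting error, while the other 3 samples lay close together. The log2 ratio was 0.48 ± 0.10 (SE, adjusted p = 0.024). The 9 other receptor-type PTPs were not called. The adhesion receptor ptprf, a close relative of ptprd, had shares of 49.2% to 53.9%, and ptpro, which is found in neurons and kidney podocytes, had shares of 48.7% to 51.2%.

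Of the catalytic subunits, ppp1cb, the beta subunit of PP1, had shares of 59.8% and 69.7% in pit digging, 48.9% in castle building and 58.6% and 59.2% in isolation. Only castle building lay below 50%. Its log2 ratio was 0.44 ± 0.11 (SE, adjusted p = 0.049), just inside the threshold. The gamma subunit of PP1, ppp1cc, had shares of 42.9% to 51.0% and was not called. Among the PP2A regulators, ppp2r5b, a B56 subunit enriched in brain, had shares of 59.2% and 53.1% in pit digging, 60.6% in castle building and 51.6% and 51.9% in isolation. All samples leaned to C. virginalis, castle building the most. Its log2 ratio was 0.36 ± 0.08 (SE, adjusted p = 0.030). With castle building left out it fell to 0.23 and the gene was not called, nor was inpp5a, described below (0.64). In the same setting ppp1r13b, ppp2cb and ptp4a1 came to be called, which gave 8 genes, against 10.4% of all genes.

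The dual specificity phosphatase dusp8, which acts on the stress kinases JNK and p38, had shares of 64.0% and 61.8% in pit digging, 53.7% in castle building and 62.9% and 60.4% in isolation. The replicates of each paradigm lay within a few points of each other, and castle building was the lowest. Its log2 ratio was 0.55 ± 0.09 (SE, adjusted p = 0.0076). The myotubularin mtmr4, which removes phosphate from PI3P on endosomes, had shares of 64.6% and 69.5% in pit digging, 44.7% in castle building and 59.8% and 64.0% in isolation. The 4 pit digging and isolated samples leaned to C. virginalis and castle building to M. conophoros. Its log2 ratio was 0.47 ± 0.10 (SE, adjusted p = 0.033). The gene inpp5a encodes the phosphatase that ends IP3 calcium signals and is known for its role in cerebellar Purkinje cells. Its shares were 63.6% and 56.1% in pit digging, 60.5% in castle building and 56.6% and 64.1% in isolation, on totals of only 53 to 167 counts. All 5 samples leaned to C. virginalis, and the paradigms overlapped. Its log2 ratio was 0.63 ± 0.14 (SE, adjusted p = 0.032).

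DESeq2 called only ptprn2 of these 7 genes (3.86% of all genes called). Without either isolated replicate ptprn2 kept the call and the other 6 lost it, while fewer of all genes were called too. The log2 ratios of these 6 kept their sign, and 1 residual degree of freedom was left. Without pit digging replicate 1, inpp5a (log2 0.54) and ppp2r5b (0.30) were lost, without pit digging replicate 2 mtmr4 (0.42), and without castle building replicate 2 ppp1cb (0.42). With a TMM factor for each allele, which centres the allele ratio of all genes, the split was 3 higher (dusp8, ptprd and ptprn2) and 1 lower (ptp4a3) in place of 7 and 0. Of the genes that leaned to M. conophoros, ptp4a3, one of the prenylated PRL phosphatases, had shares of 44.3%, 43.4%, 42.7%, 44.6% and 39.0% in the same order of samples, with a log2 ratio of -0.41 ± 0.10 (SE, adjusted p = 0.060).

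**Figure D1:**
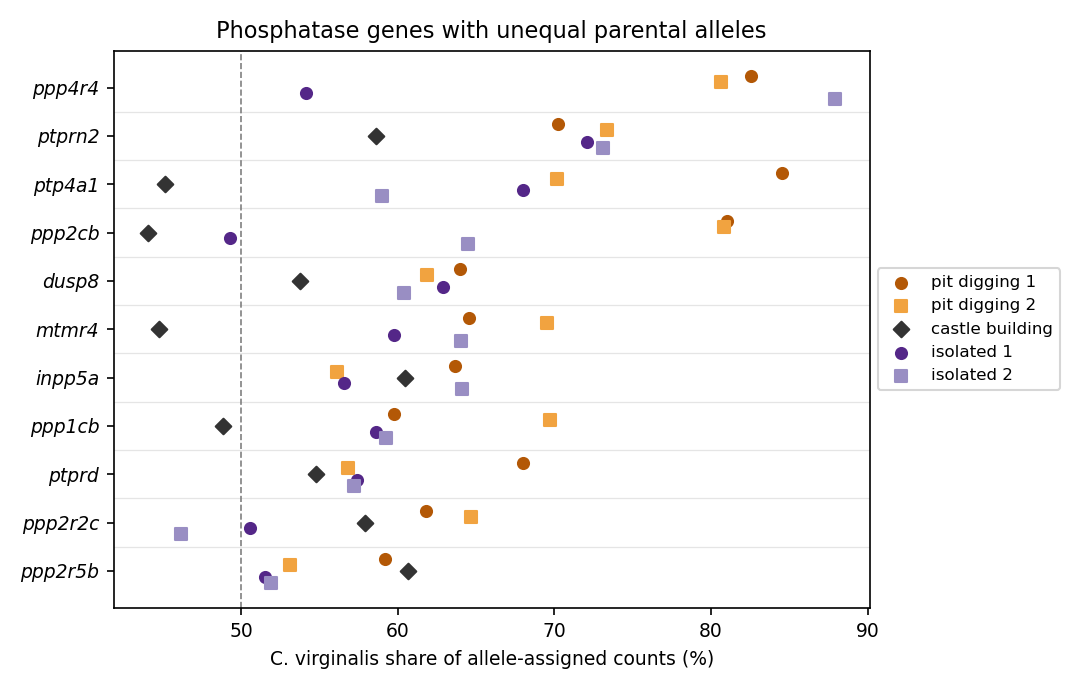
C. virginalis share in percent of allele-assigned counts (horizontal axis) of the 11 phosphatase genes called for allele ratio in any test, 1 row per gene, with 1 marker per sample (castle building is the mean of 2 libraries) and a dashed line at 50%. The castle building diamond of ptprn2 lies at 58.6%, left of the other 4 samples at 70.3% to 73.4%, and ppp4r4 has no castle building value.

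Within pit digging alone, 8 of the 71 phosphatase genes were called, all higher on C. virginalis, against 6.59% of all genes called and 6.33% called higher. DESeq2 called ppp2cb, ptp4a1 and ptprn2 (2.62% of all genes called). The 8 included 5 of the genes above, ptprn2, dusp8, ptprd, ppp1cb and mtmr4, with log2 ratios of 1.35 ± 0.12, 0.77 ± 0.13, 0.74 ± 0.15, 0.86 ± 0.15 and 1.01 ± 0.14 (SE). The remaining genes were ppp2cb, ptp4a1 and ppp2r2c.

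The beta catalytic subunit of PP2A, ppp2cb, had shares of 81.0% and 80.8% in pit digging, 44.1% in castle building and 49.3% and 64.5% in isolation. Both pit digging samples stood above all others. The exact 95% intervals were 76.6% to 84.9% and 74.6% to 86.0% in pit digging and 42.2% to 56.3% and 59.0% to 69.7% in isolation, so the isolated replicates also differed from each other by more than counting error. The pit digging log2 ratio was 2.08 ± 0.23 (SE, adjusted p = 0.0023), and it was called under all 13 alternatives, with adjusted p between 7.09e-06 and 0.0257. Over all paradigms ppp2cb was not called (log2 0.73 ± 0.19, adjusted p = 0.065), but it was called when castle building was left out.

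The PRL phosphatase ptp4a1, which binds the CNNM magnesium transporters, had shares of 84.6% and 70.2% in pit digging, 45.1% in castle building and 68.0% and 59.0% in isolation. Pit digging was again above isolation, but its replicates were apart. Castle building rested on few counts, 25 of 67 in replicate 1 and 49 of 97 in replicate 2, the widest gap between those libraries among the phosphatase genes at 13.2 points. The pit digging log2 ratio was 1.88 ± 0.28 (SE, adjusted p = 0.0077), and without pit digging replicate 1 it was 1.23 and not called. The brain-enriched B55 subunit of PP2A, ppp2r2c, had shares of 61.8% and 64.7% in pit digging, 57.9% in castle building, on 38 counts, and 50.5% and 46.2% in isolation. Its pit digging log2 ratio was 0.77 ± 0.15 (SE, adjusted p = 0.026), and the call was lost without any 1 pit digging or isolated library, with values of 0.70 to 0.87. Leaving out pit digging replicate 1 also ended the calls of dusp8 (0.70) and ptprd (0.40), and leaving out replicate 2 that of ppp1cb (0.57). Without either isolated replicate, ppp1cb (0.85) and ptprd (0.74) were lost as well.

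Within isolation, where DESeq2 called only ptprn2, 2 genes were called, both higher on C. virginalis, against 4.4% of all genes called and 4.16% called higher, and both are among the pit digging calls: ptprn2 (log2 1.41 ± 0.12, SE, adjusted p = 0.00096) and dusp8 (0.68 ± 0.15, adjusted p = 0.046). Without either isolated replicate dusp8 was not called (0.61 and 0.76), and without either pit digging replicate ppp1cb and ptprd were called too. Within castle building 0 of 71 were called by edgeR and by DESeq2, against 1.71% of all genes with edgeR, and 5 had an unadjusted p under 0.05 (9.66% of all genes). The smallest p-values belonged to ppp2r5b (log2 0.62 ± 0.16, adjusted p = 0.184), ptprn2 (0.50 ± 0.16, adjusted p = 0.320) and dusp10 (-1.57 ± 0.55, adjusted p = 0.364). A MAP kinase phosphatase like dusp8, dusp10 had a castle building share of 25% on 28 counts, with an exact 95% interval of 10.7% to 44.9%, and shares of 43.8% to 58.2% in the other samples.

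**Figure D2:**
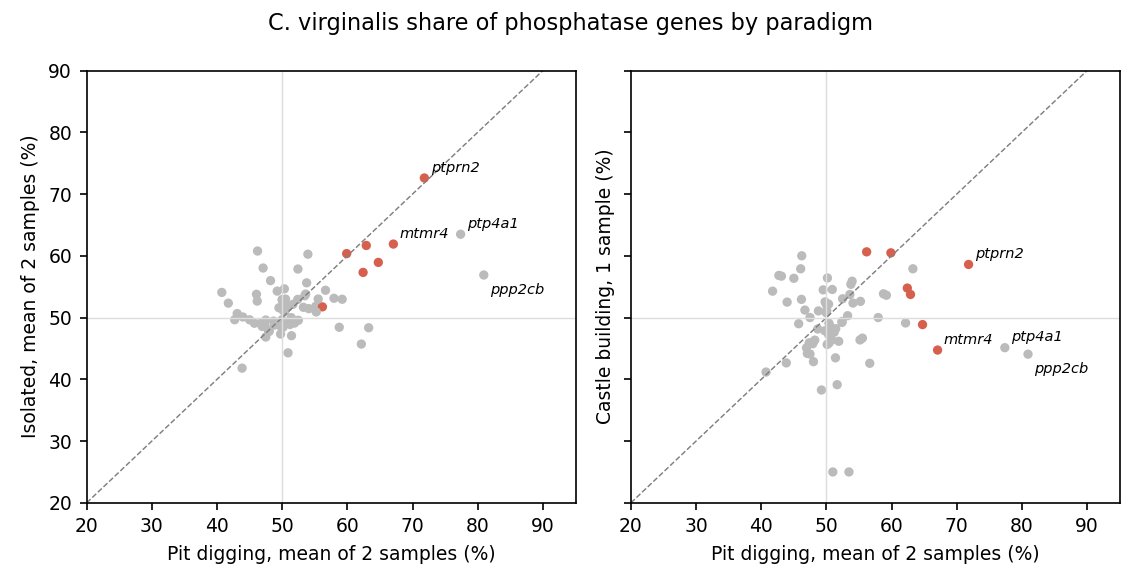
Mean C. virginalis share in pit digging (horizontal, percent) against isolation (left, percent) and castle building (right, percent) for the 71 phosphatase genes listed in all libraries; red points were called over all paradigms and the dashed line marks equal shares. The genes ppp2cb and ptp4a1 lie far to the right in both panels, and mtmr4 is at 44.7% in castle building.

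Whether the allele ratio itself depended on the paradigm was tested as a difference of ratios. Between pit digging and isolation 0 of 71 phosphatase genes were called by edgeR and by DESeq2, against 0% of all genes with edgeR, and 6 had an unadjusted p under 0.05 (5.65% of all genes). The smallest p-values were those of ppp2cb (log2 difference 1.64 ± 0.31, SE, adjusted p = 0.348), ppp2r2c (0.89 ± 0.24, adjusted p = 0.577) and ppp1r12c (-0.64 ± 0.19, adjusted p = 0.716). The shares of 27 genes did not overlap between these paradigms, against 34.2% of all genes. Between pit digging and castle building 0 were called by either tool, against 0.161% of all genes, and 9 had an unadjusted p under 0.05 (9.15% of all genes). Here mtmr4 (1.31 ± 0.26, adjusted p = 0.126), ppp2cb (2.43 ± 0.52, adjusted p = 0.167) and ptprn2 (0.85 ± 0.20, adjusted p = 0.194) came first, and without pit digging replicate 2 ptp4a1 was called. Between castle building and isolation 0 were called by either tool, against 0.263% of all genes, and 6 had an unadjusted p under 0.05 (8.50% of all genes). The first were ptprn2 (-0.90 ± 0.20, adjusted p = 0.207), mtmr4 (-1.0 ± 0.27, adjusted p = 0.288) and ppp1r12c (-0.80 ± 0.28, adjusted p = 0.472). These comparisons share samples pairwise. The castle building share lay below the 4 other samples for 29 genes, against 26.6% of all genes, and above them for 8, against 19.7%.

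The counts of each allele show which allele the unequal shares of these genes came with. For ppp2cb the C. virginalis allele was at 12.6 CPM in castle building and averaged 94.2 CPM in pit digging, a 7.47-fold ratio. The M. conophoros allele was at 16.02 CPM in castle building and averaged 22.2 CPM in pit digging, a ratio of 1.39. In isolation the alleles averaged 77.7 and 55.5 CPM, so the M. conophoros allele was 2.5-fold higher there than in pit digging. For ptp4a1 the ratio of pit digging to castle building was 5.42 for the first of these alleles and 1.26 for the second, in the same order. For ppp1cb the same ratios were 2.61 and 1.43, and for mtmr4 they were 1.98 and 0.792. In each of these 4 genes the ratio was higher for the C. virginalis allele, which restates the difference in shares and was called for none of them. The C. virginalis allele also differed more in these genes. Their sum of both alleles was higher in pit digging as well, with ratios from 1.32 for mtmr4 to 4.07 for ppp2cb. For ptprn2, dusp8 and ptprd, with shares also higher in pit digging, the M. conophoros allele differed more. Their ratios were 1.03, 0.917 and 0.791 for the C. virginalis allele and 0.568, 0.627 and 0.641 for the M. conophoros allele. For the sum of both alleles they were 0.840, 0.783 and 0.724, lower in pit digging. Which allele differed more thus largely restates the shares and the direction of the sum, and is no separate result on the alleles.

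**Figure D3:**
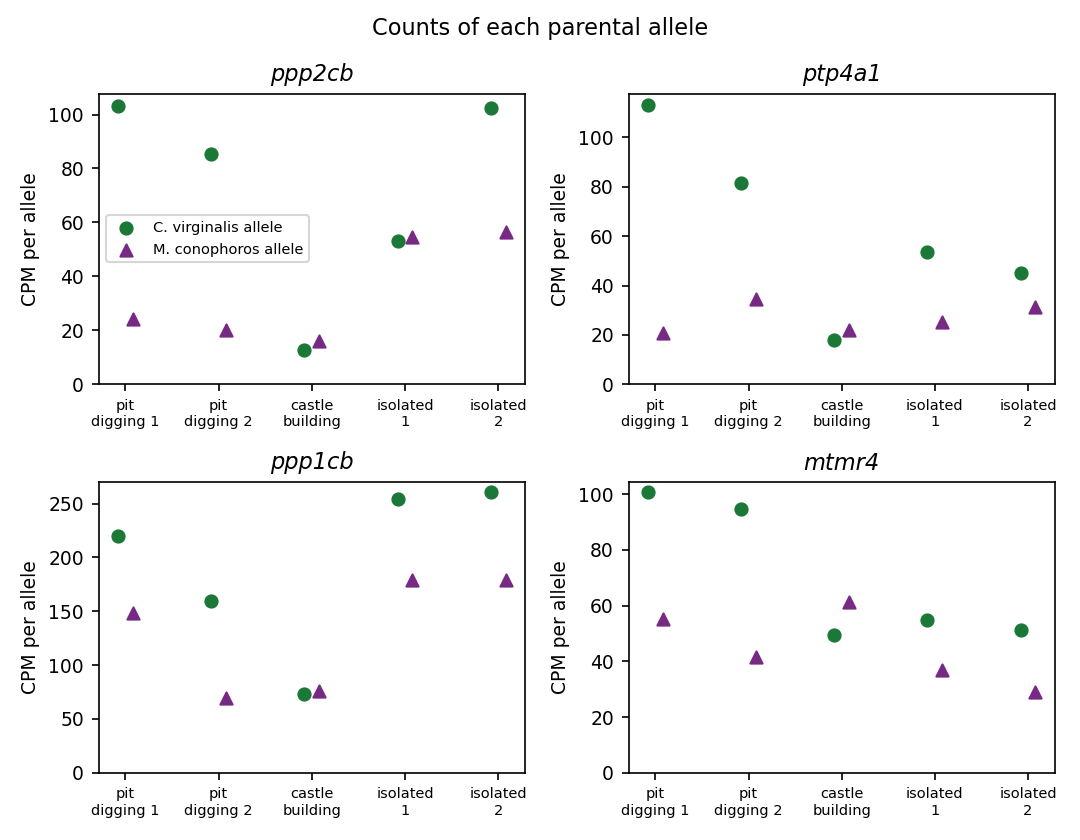
CPM of the C. virginalis (circles) and M. conophoros (triangles) alleles in each of the 5 samples for ppp2cb, ptp4a1, ppp1cb and mtmr4. The alleles of ppp2cb are apart in both pit digging samples and close together in castle building and in isolated replicate 1.

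The 6 phosphatase genes listed in all pit digging and isolated libraries but not in every castle building library were tested over those 4 libraries, where 9.72% of all genes were called for the allele ratio over pit digging and isolation. Of the 6, ppp4r4 was called. It encodes a regulatory subunit of the PP4 phosphatase. Its shares were 82.6% and 80.6% in pit digging and 54.2% and 87.9% in isolation, and it was listed in neither castle building table. The low value came from isolated replicate 1, with 48 counts and an exact 95% interval of 39.2% to 68.6%. The log2 ratio was 2.07 ± 0.30 (SE, adjusted p = 0.005), and it was called under all 9 alternatives, with log2 ratios of 1.20 to 2.51. The sum of its alleles was 90.3 and 115 CPM in pit digging and 25.3 and 110 CPM in isolation, so isolated replicate 1 stood apart in level too. The other 5, dusp7, mtmr6, ppp2r5a, ppp4r3a and ptpn6, had log2 ratios between -0.19 and 0.16 and were not called.

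The level of each gene was compared between paradigms on the sum of both alleles, scaled to CPM with TMM factors over the genes listed in all libraries. Between pit digging and isolation 0 of 71 phosphatase genes were called by edgeR, against 0% of all genes, while 12 had an unadjusted p under 0.05 (9.88% of all genes) and DESeq2 called 1, cdc14b (1.88% of all genes). A relative of the yeast mitotic exit phosphatase, cdc14b had 78.4 and 72.4 CPM in pit digging, 16.5 CPM in castle building and 9.47 and 6.37 CPM in isolation. Both pit digging samples were far above the rest, with the isolated totals at 18 and 13 counts. The mean was 9.52-fold higher in pit digging than in isolation, and the log2 difference was 3.25 ± 0.37 (SE, edgeR adjusted p = 0.179, and 4.78e-05 to 0.533 over 13 alternatives). Both alleles were higher in pit digging, with ratios of 8.37 on C. virginalis and 11.4 on M. conophoros. These ratios rest on isolated counts of 12 and 7 on C. virginalis and of 6 and 6 on M. conophoros. The latter are at the listing minimum, so whether the alleles differed alike cannot be told. The next smallest p-values were those of ppm1l (log2 -1.20 ± 0.22, adjusted p = 0.232) and ppp1r37, a PP1-binding protein (0.85 ± 0.21, adjusted p = 0.342). Of the 6 genes of the 4-library fit 0 were called by edgeR, against 0% of all genes, and 1 had an unadjusted p under 0.05 (10.0% of all genes), dusp7, which DESeq2 called (1.91% of all genes). This ERK phosphatase had 71.4 and 59.6 CPM in pit digging and 11.1 and 17.6 CPM in isolation, with no overlap (log2 2.19 ± 0.38, adjusted p = 0.224, and 0.00611 to 0.574 over 9 alternatives). CPM did not overlap between pit digging and isolation for 32 of the 71 genes, against 43.4% of all genes.

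Larger differences in level involved castle building, which is a single sample once its libraries are averaged. Its CPM lay outside the range of the 4 other samples for 53 of the 71 genes, against 65.4% of all genes: above them for 31 (32% of all genes) and below them for 22 (33.4% of all genes). Genes not listed in castle building are outside these counts, so genes too low there to be listed are missing from the low side. The genes dusp7, mtmr6, ppp4r3a, ppp4r4 and ptpn6 were listed in every pit digging and isolated library but in neither castle building library. Their absence alone does not show a low level there. The lowest listed total was higher in castle building, at 21 against 12 counts. Also, mtmr7, described below, was missing from some libraries despite counts far above the minimum in others. Between pit digging and castle building 3 of 71 were called, 2 higher and 1 lower in pit digging, against 4.69% of all genes (3.27% higher and 1.42% lower). Between castle building and isolation 7 of 71 were called, 2 higher and 5 lower in castle building, against 6.72% of all genes (2.44% higher and 4.28% lower). These p-values hold no variation between castle building animals. Both comparisons use the same castle building sample, so their agreement in direction carries no independent information. Castle building also had lower mbp and mpz and a lower sum of microglial and leukocyte markers than the other samples. Its sum of radial glial and astroglial markers was the highest, at 5418 CPM. Isolated replicate 1 was near it at 4855 CPM, and isolated replicate 2 was at 2656 CPM. The part of these markers' cell types in the differences in level was not tested.

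The alpha catalytic subunit of PP2A, ppp2ca, had 171 and 161 CPM in pit digging, 22.3 CPM in castle building and 141 and 193 CPM in isolation. Castle building stood alone below the other samples. Pit digging was 7.44-fold higher than castle building (log2 2.89 ± 0.37, SE, adjusted p = 0.041), and isolation was 7.48-fold higher (castle building minus isolation, log2 -2.90 ± 0.37, adjusted p = 0.036). The beta subunit, ppp2cb, had 127 and 105 CPM in pit digging, 28.6 CPM in castle building and 108 and 159 CPM in isolation, with castle building again below the rest. EdgeR called neither comparison (pit digging minus castle building, log2 2.02 ± 0.41, adjusted p = 0.067, and castle building minus isolation, -2.22 ± 0.42, adjusted p = 0.056), and DESeq2 called both. These paralogs encode closely related proteins. How reads were divided between them could not be checked without sequences, nor could it for ppp1cb and ppp1cc.

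Of the 16 PP1 regulatory subunits tested, 14 were not called between pit digging and castle building and 13 not between castle building and isolation; the called ones were ppp1r12a, ppp1r12c and ppp1r13b. The myosin phosphatase targeting subunit ppp1r12a had 45.2 and 44.7 CPM in pit digging, 232 CPM in castle building and 17.4 and 24.0 CPM in isolation. Castle building was 5.16-fold above pit digging (pit digging minus castle building, log2 -2.37 ± 0.32, adjusted p = 0.042) and 11.2-fold above isolation (log2 3.48 ± 0.33, adjusted p = 0.036). Its relative ppp1r12c had 138 and 123 CPM in pit digging, 62.6 CPM in castle building and 206 and 198 CPM in isolation. It was lower in castle building than in isolation (log2 -1.69 ± 0.28, adjusted p = 0.047), the opposite direction to ppp1r12a. The p53-binding protein ppp1r13b had 168 and 210 CPM in pit digging, 26.2 CPM in castle building and 116 and 174 CPM in isolation. Pit digging was 7.22-fold above castle building (log2 2.85 ± 0.44, adjusted p = 0.046) and isolation 5.53-fold above it (castle building minus isolation, log2 -2.47 ± 0.43, adjusted p = 0.049).

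The other calls were between castle building and isolation. A B56 subunit of PP2A, ppp2r5c, had 56.4 and 66.5 CPM in pit digging, 208 CPM in castle building and 62.6 and 56.3 CPM in isolation, with castle building 3.5-fold above isolation (log2 1.81 ± 0.29, adjusted p = 0.045). The PP6 subunit ppp6r2 had 196 and 190 CPM in pit digging, 37.9 CPM in castle building and 166 and 247 CPM in isolation, 5.46-fold above castle building (log2 -2.45 ± 0.39, adjusted p = 0.045). The endoplasmic reticulum phosphatase ppm1l had 114 and 100 CPM in pit digging, 61.6 CPM in castle building and 248 and 245 CPM in isolation, where it was 4.0-fold above castle building (log2 -2.0 ± 0.29, adjusted p = 0.041). Its replicates were close in both paradigms, and pit digging lay between the other 2 paradigms.

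All calls on the sums rest on few samples. When any 1 pit digging or isolated library was left out, 1 residual degree of freedom remained and 0 of 71 phosphatase genes passed in either comparison with castle building, as did 0 of all genes, although the 7 genes kept their direction, with log2 values for ppp2ca, for example, of 2.83 to 2.92 between pit digging and castle building. Without TMM factors the split was 2 higher and 2 lower between pit digging and castle building (4.98% of all genes called), with ppp2r5c added. Between castle building and isolation it was 3 higher and 4 lower (6.69% of all genes), with ptprf gained and ppp1r12c lost. With RLE factors in place of TMM factors, ppp1r13b lost its call between castle building and isolation (6.62% of all genes). The calls between pit digging and castle building then stayed the same (4.49% of all genes).

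**Figure D4:**
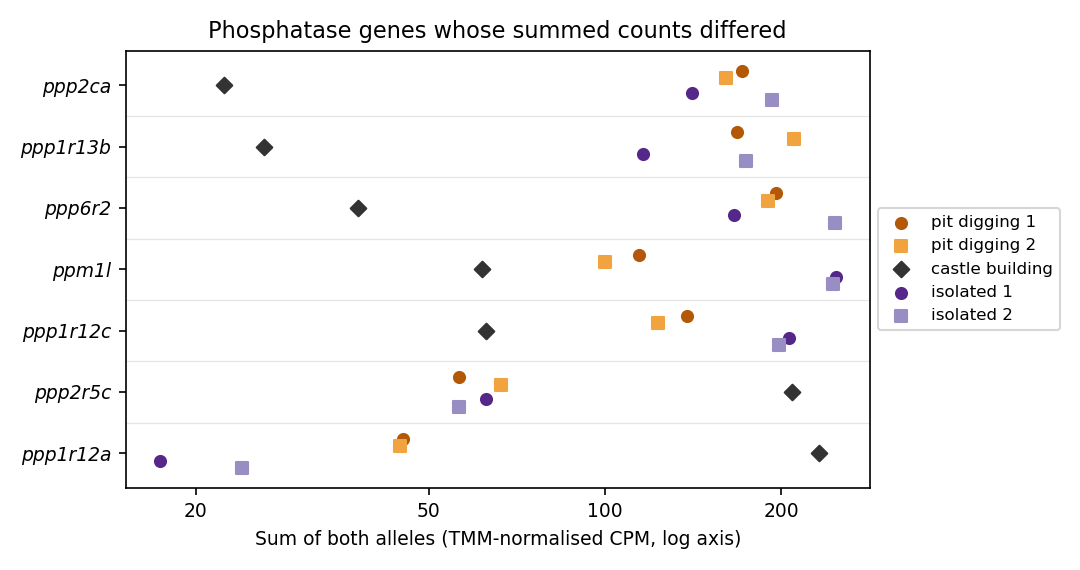
Sum of both alleles in TMM-normalised CPM (horizontal, log axis) of the 7 phosphatase genes called for a difference in level, with 1 marker per sample. The castle building diamond lies below the other 4 samples for 5 genes, at 22.3 CPM for ppp2ca, and above them for ppp2r5c and ppp1r12a.

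The families with no call for allele ratio over all paradigms were the PP1 regulatory subunits (16 tested), PPM phosphatases (6), non-receptor PTPs (6), PP4 regulatory subunits (3 in the 5-sample fit), PTP4A phosphatases (2), and PP6 and CDC14 (1 each). Of the PP1 regulatory subunits, ppp1r7, known as SDS22, had shares of 52.3% to 54.9%, a spread of 0.941 points (SD, n = 5), with a log2 ratio of 0.21 ± 0.08 (adjusted p = 0.201). The shares of ppp1r3f, a glycogen-targeting subunit, ran from 25% in castle building, on 24 counts, to 61.8% in pit digging replicate 2, on 34 counts, with a log2 ratio of -0.46 ± 0.24 (adjusted p = 0.373). The mean shares of the 6 PPM phosphatases stayed between 47.4% and 51.6%. Among them ppm1k, the mitochondrial phosphatase that activates branched-chain amino acid breakdown, had 658 and 741 CPM in pit digging, 631 CPM in castle building and 448 and 208 CPM in isolation. The isolated samples were the lowest and also the furthest apart.

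Of the non-receptor PTPs, ptpn5, known as STEP and enriched in striatal neurons, had 16.8 and 24.0 CPM in pit digging, 227 CPM in castle building and 72.1 and 13.7 CPM in isolation. Castle building was above all others, but the isolated samples differed several fold, and edgeR called neither comparison with castle building while DESeq2 called both (pit digging minus castle building, log2 -3.48 ± 0.95, edgeR adjusted p = 0.0997, and castle building minus isolation, 2.41 ± 0.93, adjusted p = 0.170). The signalling phosphatase ptpn11, known as SHP2, had 65.1 and 72.4 CPM in pit digging, 97.1 CPM in castle building and 81.5 and 83.7 CPM in isolation, without overlap between paradigms, and was not called. Its shares of 45.2% and 46.3% in pit digging lay below those of 49.0% to 49.1% in the other samples. The receptor-type ptprf had 420 and 788 CPM in pit digging, 1506 CPM in castle building and 328 and 246 CPM in isolation, highest in castle building. Pit digging minus castle building was -1.32 ± 0.44 on the log2 scale (adjusted p = 0.140), and castle building minus isolation was 2.39 ± 0.44 (adjusted p = 0.054), not called by edgeR and called by DESeq2. Of the PP4 regulators, ppp4r2 had a share of 38.3% in castle building and of 46.8% to 58.6% in the other samples, and ppp4r3b had shares of 40.0% to 54.7% that overlapped between paradigms. The inositol 4-phosphatase inpp4a had shares of 43.5% to 51.2% and 214 to 280 CPM, a narrow range of levels. The PI3P phosphatase mtmr3 had shares of 49.1% to 53.4% and 160 to 341 CPM.

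The 10 genes outside both fits were dusp1, inpp4b, mtmr14, mtmr2, mtmr7, ppm1b, ppp1r13l, ppp1r26, ppp1r8 and ppp5c. The myotubularin mtmr7 was listed with 274 counts in pit digging replicate 2, 282 in castle building and 195 in isolated replicate 1, at shares of 49.6%, 50.4% and 52.8%, yet in neither pit digging replicate 1 nor isolated replicate 2, although these counts are far above the listing minimum. The immediate early MAP kinase phosphatase dusp1 was listed with only 23 and 12 counts in pit digging and 14 in isolated replicate 2. The other 8 had totals of at most 130 counts in any sample.

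Partner and neighbouring genes were taken from lists of known function, and the same tests were read for them, beside the 8.21% of all genes called for allele ratio over all paradigms and the 7.74% called higher. Of 15 tested partners and inhibitors of PP1, PP2A and calcineurin, 3 were higher on C. virginalis over all paradigms and 0 lower: the PP2A inhibitor anp32a, and the calcineurin regulators cabin1 and rcan3. The shares of rcan3 were 60.3% and 61.7% in pit digging, 57.9% in castle building and 58.4% and 61.8% in isolation (log2 0.57 ± 0.06, adjusted p = 0.0013). Those of cabin1 ran from 52.5% to 76.5%. For anp32a they were 76.2% and 68.2% in pit digging, 62.9% in castle building and 46.7% and 52.4% in isolation, with only 7.89 CPM in isolated replicate 1. Of 14 tested ligands and scaffolds of receptor-type PTPs, 3 were higher and 0 lower: caskin1, which binds LAR-type receptors, the adhesion protein cntn1 and the heparan sulfate proteoglycan sdc3. The shares of sdc3 were 84.7% and 80.2% in pit digging, 65.4% in castle building and 87.7% and 87.9% in isolation (log2 2.03 ± 0.10, adjusted p = 3.78e-05), lowest in castle building. Those of caskin1 ran from 57.8% to 73.3%. For cntn1 they were 62.7% and 68.3% in pit digging, 53.3% in castle building and 50.8% and 48.0% in isolation (log2 0.36 ± 0.09, adjusted p = 0.049). In the same list the ptprz1 ligand mdk fell in castle building, from 328 and 198 CPM in pit digging to 23.3 CPM, with 302 and 272 CPM in isolation (pit digging minus castle building, log2 3.49 ± 0.48, adjusted p = 0.041), and ntrk3 and il1rapl1 were higher there than in pit digging.

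Of 25 tested phosphoinositide kinases, phosphatases and related genes, 3 were higher on C. virginalis and 0 lower, pip4k2a, plcb1 and synj1, a phosphatase of synaptic vesicle recycling. All 3 had their highest share in castle building, at 82.8%, 63.1% and 61.2%. In the other samples it was 51.8% to 63.9% for pip4k2a, 55.1% to 62.0% for plcb1 and 50.8% to 58.7% for synj1. The castle building share lay above the 4 other samples for 19.7% of all genes. A high castle building share also adds to the test by which these 3 genes were taken. The IP3 receptor itpr1, which responds to the substrate of inpp5a, had 218 and 240 CPM in pit digging, 37.4 CPM in castle building and 221 and 261 CPM in isolation (log2 2.61 ± 0.31, adjusted p = 0.041, between pit digging and castle building). Of 9 tested MAP kinases and their activators, the substrates of several dual specificity phosphatases and the kinases above them, 2 were higher and 0 lower. One of them, the JNK gene mapk10, had shares of 72.8% and 68.1% in pit digging, 55.2% in castle building and 67.7% and 69.1% in isolation (log2 0.89 ± 0.07, adjusted p = 0.00033), lowest in castle building. None of the 11 tested protein phosphatases outside the symbol rule was called in any of these tests by edgeR.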

How the data were processed

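Whole-brain RNA was extracted with Trizol and sequenced as Illumina libraries, per the labels' protocols. The submitters' processing notes name STAR 2.4. No genome build, annotation, strandedness or allele counter was given in the sources used here. The deposited values are whole-number read counts per gene and allele without normalization, per the file headers, beside the authors' deposited log2 ratio of the alleles, which matched the counts to within 5.33e-15.

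The members, families and lists were chosen with earlier results of these data known. Named genes are those called in any test, the 3 smallest p-values of a test without a call, and in each family the 3 with most counts and the smallest allelic p, and 5 genes of the 4-library fit; others were chosen after their values were seen.

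R 4.3.3 with edgeR 4.0.16 fitted an intercept per sample and an allele coefficient per paradigm, with 1 library size for both alleles, and the sums with paradigm as the term and TMM factors. Genes needed a mean total of 20 counts. Both fits left 2 residual degrees of freedom, with biological coefficients of variation of 10.8% for alleles and 34.1% for sums. DESeq2 1.42.0 was an alternative, and exact binomial (Clopper-Pearson) intervals came from SciPy 1.17.1. The code was tested on simulated data. Alternatives covered filters, scaling, the castle building libraries and each library left out. No sequences are shown, and 1 gene of the MAP kinase list is not reported here. With no annotation at hand, antisense and overlapping genes could not be separated.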

Additional observations from a re-analysis of the deposited data

How the results depend on the processing

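Counts of called phosphatase genes changed as follows, with the percentage of all genes called under the same setting in parentheses. For the allele ratio over all paradigms the 7 calls (8.21%) became 1 with DESeq2 (3.86%) and 4 with TMM between alleles (6.71%). They became 5 with a mean total of at least 100 (10.7%) and 8 with castle building left out (10.4%). With the replicate block they became 9 (8.75%), and with castle building as 2 animals 10 (16%). In pit digging the 8 (6.59%) became 3 with DESeq2 (2.62%), 7 with TMM between alleles (5.07%) and 10 with castle building as 2 animals (10.4%). In isolation the 2 (4.4%) became 1 with DESeq2 (1.94%), with the replicate block (5.17%) and with TMM between alleles (3.48%). They became 3 with castle building as 2 animals (6.25%). With castle building treated as 2 animals, 4 were called within castle building in place of 0 (9.04%). For the difference of ratios that setting called 3 between pit digging and castle building (3.99%) and 2 between castle building and isolation (3.05%). For sums between pit digging and isolation, DESeq2 called 1 (1.88%) and castle building as 2 animals 2 (2.47%) in place of 0, and DESeq2 called 1 in the 4-library fit (1.91%). For sums between pit digging and castle building the 3 (4.69%) became 11 with DESeq2 (12.3%) and 6 with a mean total of at least 100 (10.1%). They became 37 with castle building as 2 animals (38.7%) and 0 with the replicate block (0%). Between castle building and isolation the 7 (6.72%) became 12 with DESeq2 (13.5%) and 9 with a mean total of at least 100 (11.9%). They became 37 with castle building as 2 animals (39.9%) and 0 with the replicate block (0%). With 1 library left out, the number of calls changed among all genes too, and the phosphatase genes that lost a call are named above. The block spends 1 of the 2 residual degrees of freedom. Deviations of same-numbered samples correlated at -0.0956 for levels and -0.0322 for allele ratios, so the numbers were not treated as pairs. With 2 replicates a group these deviations mirror each other, which leaves 1 comparison, and whether a batch is shared was not tested. By construction, castle building as 2 animals understates the spread. With 1 library left out, the uncalled ratio difference of ppp2r5a ran from -0.0385 to 1.19, the uncalled sum difference of ptpn6 from -1.30 to 0.32 and that of ppp4r4 from -0.0856 to 2.04, so each of these changed sign. Single values were tallied only for the genes reported for a test as called or with the smallest p-values. Under the other settings 273 of these values stayed on the same side of the threshold, 12 came to pass it and 34 no longer did. With 1 library left out, calls were lost more often than under those settings, as described above, and 3 values changed sign. Other genes that came to pass, such as ptp4a1 over all paradigms with castle building left out, are outside this tally.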
